A study of Glycine max with 12 samples.

Results

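A group of 300 soybean genes was read in 1 V5 library of the chromosome 20 single mutant, its replicate 2, and was close to unread in the other 5 V5 libraries. The genes were chosen by their V5 levels in CPM, the read count of a gene after all libraries are scaled to one total: above 1 CPM in that library, and no more than 0.1 CPM in each of its 5 companions. Of 56044 gene IDs, 343 met this rule, and the 300 with the highest CPM in the single mutant V5 replicate 2 were kept. The V5 values are therefore given below as a description, with no test, and only the R5 values are independent of the choice.

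RNA was sequenced from field-grown soybean (Glycine max), with seed given as the tissue of all 12 libraries and seeds collected from 3 to 5 plants. The plants were wild type of the cultivar Thorne, a Gm20 single mutant edited at the major seed protein locus on chromosome 20, and a Gm20/Gm10 double mutant that is also edited in the paralog on chromosome 10. Each genotype had 2 libraries labelled R5 and 2 labelled V5, which makes 6 groups. The labels do not say how many independent edited lines stand behind each mutant, or whether the libraries of a group came from separate plots.

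As background, soybean growers write R5 for plants whose seeds begin to fill and V5 for young plants that have leaves but no flowers, so the label V5 and the tissue label seed do not describe the same material. The seed protein locus on chromosome 20 is known for a gene with a CCT domain, a protein module shared with regulators of flowering, whose alleles trade seed protein against seed oil. Soybean is an ancient polyploid, and most of its genes have close copies elsewhere in the genome. During seed development, and between seed parts, large sets of genes are switched on and off.

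The deposited tables list gene IDs without names or products, and 0 of them could be found in a RefSeq table of 59048 soybean genes. The genes therefore appear by ID, and no role is given to any of them. The IDs printed are 2 per class, 2 per direction of each comparison, and 2 more that are said to be chosen otherwise. For the same reason the seed label was not checked against marker genes here, and the edited genes were not read. CPM is not divided by gene length, so a higher CPM in one gene than in another does not show more transcripts. Reads of near-identical copies may have been split or dropped in the counting.

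The library in which the genes were read stood apart from its stage over all genes. Over 33114 genes with a mean of 1 CPM or more, Spearman's rho of CPM was 0.742 to 0.757 between the single mutant V5 replicate 2 and the other 5 V5 libraries, and 0.966 to 0.99 among those 5. Its rho with the 6 R5 libraries was 0.491 to 0.53, below the 0.568 to 0.664 of the other V5 libraries. Its total of 21066989 counts was the highest at V5, slightly above the 20410270 to 20877795 of the other 5. A total of 30254 genes stood above 1 CPM in it, against 28513 to 30157 in the other 5. The same rule applied to each other library within its own stage found 0 to 2 genes, at V5 and at R5 alike. No other library shares the pattern, so the level of each gene in it has no replicate check. The depth and the number of genes read were thus close to those of the other V5 libraries, while the order of the genes by level was less alike.

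In the single mutant V5 replicate 2 the 300 genes were mostly low. Their median was 2.8 CPM, with 1.66 and 5.76 CPM at the lower and upper quartile and 98.4 CPM at the top. Together they held 37870 counts, or 1798 CPM, which is 0.18% of that library. A total of 45 genes stood at 10 CPM or more and supplied 57% of the summed level, 92 stood between 3 and 10 CPM and supplied 26.1%, and the 163 genes under 3 CPM supplied 16.9%. A minority of the genes thus made up most of the reads of the group.

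In the other V5 libraries the genes left few reads. Their summed level was 5.49 and 4.73 CPM for wild type, 5.55 and 4.65 CPM for the double mutant, with 6.35 CPM in the single mutant replicate 1, from 97 to 132 counts per library. All 5 libraries were alike in this, and the single mutant replicate 1 was as low as the wild type and the double mutant by the rule itself. In all 5 together 100 of the 300 genes had 0 counts, 118 had 1 or 2 counts and 82 had 3 or more, with a highest total of 10. The share with 0 counts was 33.3% among genes at 10 CPM or more in the single mutant replicate 2 and 35% among those under 3 CPM. The rule had already removed genes with more counts in these 5 libraries. These shares therefore cannot show whether stray counts went with the level of a gene.

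The thresholds cut through a continuous range. The last gene kept had 25 counts (1.19 CPM) in the single mutant V5 replicate 2, and 10 genes shared that count, 2 of them inside the group and 8 outside. The 43 genes left out reached down to 22 counts (1.04 CPM). At the lower threshold 91 genes of the group had 2 counts in at least 1 of the other 5 libraries, which is 0.0958 to 0.098 CPM. A further 220 genes, above 1 CPM in the single mutant replicate 2, reached between 0.1 and 0.2 CPM in another V5 library and so were just outside the rule. Their median in the single mutant replicate 2 was 2.56 CPM and their highest value 276 CPM, above that of any gene in the group.

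The R5 libraries, which the rule did not use, divided the 300 genes into 3 classes. In the first, 43 genes (14.3%) stood above 1 CPM in all 6 R5 libraries. In the second, 96 genes (32%) stood at 0.1 CPM or less in all 6. The other 161 genes (53.7%) lay between, and 56 of these passed 1 CPM in at least 1 R5 library while 105 did not. The genes were thus confined to 1 library among the V5 libraries but not in the series as a whole, since 99 of 300 passed 1 CPM in some R5 library. In 245 of the 300 genes the single mutant V5 replicate 2 had the highest CPM of all 12 libraries. For the 201 genes above 1 CPM in no R5 library, this followed from the rule itself. A set of 20 genes had no count in any of the other 11 libraries.

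**Figure D1:**
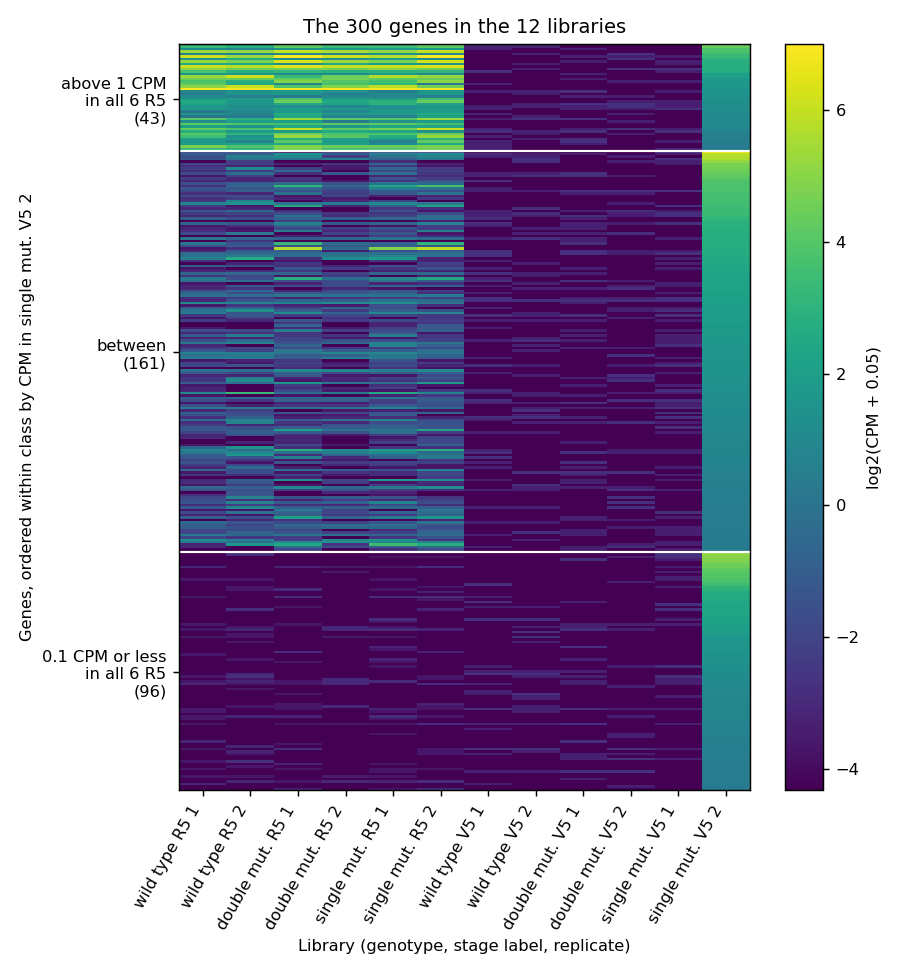
Each row is 1 of the 300 genes and each column 1 library, and the colour gives log2(CPM + 0.05). The rows are grouped into the 43 genes above 1 CPM in all 6 R5 libraries, the 161 genes between and the 96 genes at 0.1 CPM or less in all 6, and ordered within each class by their CPM in the single mutant V5 replicate 2. The 5 V5 columns before the last are dark throughout, and the R5 columns are bright only in the upper part.

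The share of genes in each class differed from that of genes read in the same library. Of all 30254 genes above 1 CPM in the single mutant V5 replicate 2, 86.7% stood above 1 CPM in all 6 R5 libraries and 2.19% were silent there by the same definition. Among the 17132 genes that were low (0.1 CPM or less) in the other 5 V5 libraries, these shares were 3.29% and 73.5%. The group lay between these sets with its 14.3% and 32%, and since the rule draws on both conditions no test is given. Seen from the R5 side, 563 genes stood above 1 CPM in all 6 R5 libraries and no higher than 0.1 CPM in the other 5 V5 libraries. In the single mutant V5 replicate 2, 49 of these (8.7%) passed 1 CPM, 123 lay between, and 391 (69.4%) were again at 0.1 CPM or less. Most genes that marked R5 off from the other V5 libraries were therefore as low in this library as in its companions. A larger share of these 563 genes passed 1 CPM in it, however, than of genes silent at R5. Of 12587 genes at 0.1 CPM or less in all 6 R5 and the other 5 V5 libraries, 112 (0.89%) passed it. The difference was not tested.

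The 96 genes silent at R5 supplied 534 CPM, or 29.7% of the group's level in the single mutant V5 replicate 2, and 14 of them reached 10 CPM. Of the 96, 39 had no count in any R5 library and 41 had no count in the other 5 V5 libraries. Glyma.06G266700 had 862 counts, or 40.9 CPM (exact Poisson 95% interval 38.2 to 43.7, counting error only), in the single mutant V5 replicate 2. It had 0 counts in all 6 R5 libraries, 0 in both wild-type and both double mutant V5 libraries, and 2 counts in the single mutant V5 replicate 1. Glyma.08G032800 had 737 counts, or 35 CPM (32.5 to 37.6), in the same library. Outside it, this gene had 3 counts in the wild-type R5 replicate 2, 2 counts in the single mutant V5 replicate 1 and 0 in the other 9 libraries. For both genes the few stray counts at V5 fell in the other library of the same genotype. Counts this small do not separate that library from those at 0, where a count of 0 allows up to 0.144 to 0.147 CPM at V5.

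The 161 genes in between held the largest part of the group's level, 1048 CPM or 58.3%, and 26 of the 45 genes at 10 CPM or more. Glyma.11G087300 had the highest level of the group, with 2074 counts or 98.4 CPM (94.3 to 103). At R5 it was at 0.194 and 0.218 CPM for wild type, 0.0605 and 0.148 CPM for the double and 0.347 and 0.212 CPM for the single mutant, from 2 to 12 counts each. All 6 values were a small fraction of its level in the single mutant V5 replicate 2. Glyma.07G125600 followed with 1220 counts or 57.9 CPM (54.7 to 61.2). Its R5 values were 0.519 and 0.56 CPM for wild type, 2.78 and 0.519 CPM for the double and 1.44 and 2.45 CPM for the single mutant. The double mutant replicate 1 and both single mutant libraries were high at R5, while the double mutant replicate 2 was level with wild type.

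Of the 43 genes on at R5, most were higher at R5 than in the V5 library that selected them, which is given as a description because both levels entered the choice of the class. Their median was 2.75 CPM in the single mutant V5 replicate 2, and they supplied 216 CPM or 12% of the group's level there. The median over the 6 R5 libraries exceeded the V5 value in 32 of the 43, with a median ratio of 2.66, a range of 0.0612 to 91 and a ratio above 5 in 14 genes. In 27 genes the V5 value was below all 6 R5 values, in 8 above all 6 and in 8 among them. The gene with the highest V5 level in this class was one of the exceptions. Glyma.14G195600 had 693 counts, or 32.9 CPM (30.5 to 35.4), in the single mutant V5 replicate 2 and 0 counts in the other 5 V5 libraries. That is 224-fold above a floor of 3 counts per library, which only describes values that the rule used. At R5 it was at 1.95 and 1.65 CPM for wild type, 2.84 and 1.37 CPM for the double and 2.08 and 3.57 CPM for the single mutant. Glyma.10G254300 had 20.5 CPM (18.6 to 22.5) in that V5 library and 1 count in each wild-type V5 library. At R5 it was at 9.72 and 6.6 CPM for wild type, 17.6 and 10.3 CPM for the double and 10.4 and 17.9 CPM for the single mutant. In both genes the highest R5 libraries were replicate 1 of the double mutant and replicate 2 of the single mutant, and the other 4 lay close together.

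**Figure D2:**
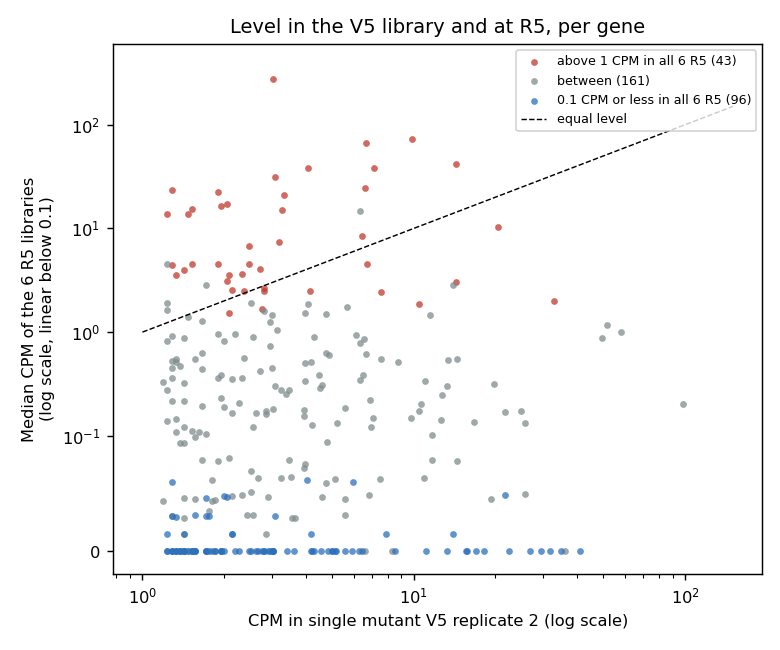
Each point is 1 gene, with its CPM in the single mutant V5 replicate 2 on the horizontal axis and the median CPM of the 6 R5 libraries on the vertical axis, both on log scales (linear below 0.1 on the vertical one), coloured by class. Of the 43 genes above 1 CPM in all 6 R5 libraries, 32 lie above the dashed line of equal level, and the 96 genes at 0.1 CPM or less in all 6 lie along the bottom.

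The summed R5 level of the 300 genes varied between libraries of the same genotype. It was 932 and 974 CPM for wild type, 1309 and 837 CPM for the double and 1036 and 1365 CPM for the single mutant. Replicate 1 of the double mutant and replicate 2 of the single mutant were the highest. Both single mutant libraries lay above both wild-type libraries, and the double mutant libraries lay on either side of them. One gene, Glyma.15G238600, supplied 26.4% of the mean R5 sum, and it was named after its values were seen. It was at 285 and 376 CPM for wild type, 230 and 220 CPM for the double and 327 and 268 CPM for the single mutant at R5, against 3.04 CPM in the single mutant V5 replicate 2. Without it the sums were 648 and 598 CPM for wild type, 1078 and 617 CPM for the double and 710 and 1097 CPM for the single mutant, so the same 2 libraries were again the highest and both single mutant libraries again lay above wild type.

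These 2 libraries were also the closest R5 pair over all genes, although they carry different genotypes, with a Spearman's rho of 0.996 between them against 0.889 to 0.992 in the other R5 pairs. Of the 132 genes of the group that passed the low-count filter at R5, 37 (28%) had their highest R5 value in the double mutant replicate 1, 30 (22.7%) in the single mutant replicate 1 and 26 (19.7%) in the single mutant replicate 2, against 12%, 27.1% and 12.7% of all genes tested. Among the 43 genes on at R5 the counts were 18, 6 and 9. The wild-type replicate 2 had the highest R5 value in 23 of the 132 genes (17.4%, beside 27.7% of all tested). It had the lowest in 45 (34.1%, beside 20%), and in 21 of the 43 genes on at R5. The 43 genes varied by a median of 2.72-fold between their lowest and highest R5 library, by under 2-fold in 12 genes and by over 4-fold in 12. The comparisons below are also given without the 2 close libraries.

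**Figure D3:**
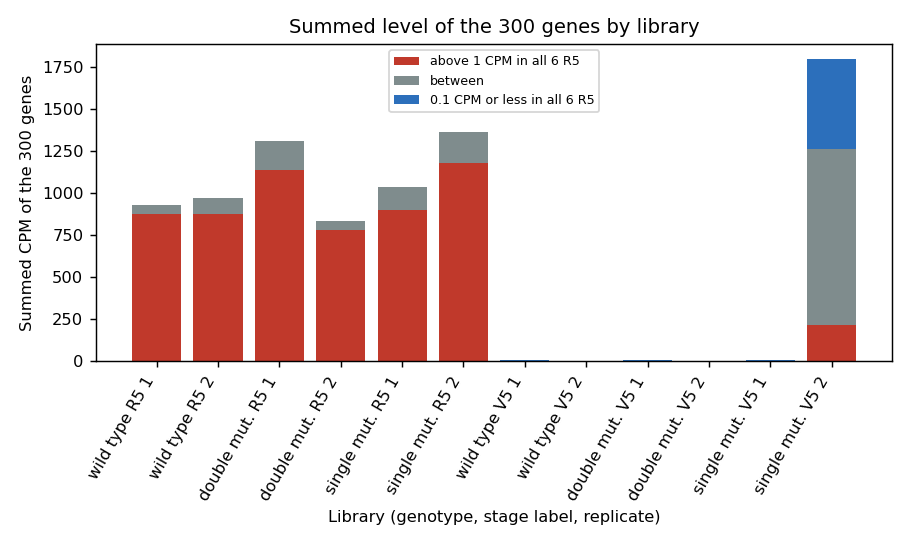
The bars give the summed CPM of the 300 genes in each library, from 0, divided by class. The 43 genes above 1 CPM in all 6 R5 libraries make up most of each R5 bar and 216 of the 1798 CPM of the single mutant V5 replicate 2, and the other 5 V5 libraries reach 4.65 to 6.35 CPM.

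The genotypes were then compared at R5, to ask whether genes read in 1 single mutant library at V5 differed in the mutants in libraries the rule had not used. The edgeR quasi-likelihood test was fitted to all genes in the 6 R5 libraries, of which 37058 passed the filter. Of the 300 genes 132 passed it, 43 of the class on at R5 and 89 of those between. The 96 silent genes and 72 of those between were not tested, so the values below do not describe the whole group. A low gene could pass the filter through the genotype in which it was high, so the counts and medians over the 132 genes are a description only. At most 1 of the 132 genes had a genotype at 0 counts in a comparison, and setting it at the floor of 3 counts left each median as given. The genes tested were low, with a median of 0.31 in mean log2 CPM against 3.38 over all genes tested.

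In the double mutant against wild type, edgeR called none of the 132 genes and none of the 37058 (0% of all tested, smallest adjusted p 0.779, with 1089 genes at an unadjusted p under 0.05). At an unadjusted p under 0.05, 9 genes of the group (6.82%) were higher and 7 (5.3%) lower, beside 1.25% and 1.69% of all genes tested. The CPM values of the 2 genotypes did not overlap in 31 genes with the double mutant higher and in 22 with it lower, which is 23.5% and 16.7%, beside 14% and 29.5% of all tested. These CPM values were scaled to library totals only, unlike the fold changes. The median log2 fold change was 0.42 in the group and -0.02 over all genes tested. Over the same 132 genes leaving out the double mutant replicate 1 gave 0.08, and leaving out its replicate 2 gave 0.62. Without the filter it was 0.13 over 261 genes. Without the 2 close libraries it was -0.1 over 143 genes, but 0.08 over the 126 of the 132 genes in that fit. Its size thus varied with the genes and libraries kept, and it fell below 0 only where the set of genes changed as well.

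Glyma.12G179700 had one of the smallest unadjusted p among the higher genes. It was at 1.07 and 0.841 CPM for wild type, 2.06 and 2.37 CPM for the double and 1.68 and 1.6 CPM for the single mutant. All 4 mutant libraries lay above both wild-type libraries, with a double mutant log2 fold change of 1.32 (SE 0.34, edgeR adjusted p 0.779). Glyma.02G257700 was at 0.583 and 2.86 CPM for wild type, 0.0908 and 0 CPM for the double and 0.116 and 0.0908 CPM for the single mutant. The mutant libraries held 3 and 0 counts for the double and 4 and 3 counts for the single mutant, against 18 and 92 counts for wild type, through which alone the gene passed the filter. Wild type lay above both mutants (edgeR adjusted p 0.779 and 0.585), and no fold is given against so few counts. Glyma.14G038300, which is on at R5, was at 39.6 and 70.7 CPM for wild type, 9.71 and 22.8 CPM for the double and 51.3 and 36.4 CPM for the single mutant. The double mutant lay below the other genotypes, with a log2 fold change of -1.67 (SE 0.45) from wild type and of -1.39 (SE 0.44) from the single mutant (edgeR adjusted p 0.779 and 1).

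Glyma.08G009900 differed most between R5 libraries among the genes named. It was at 0.0324 and 0.0934 CPM for wild type, 52 and 0.742 CPM for the double and 28.8 and 58.8 CPM for the single mutant, and at 6.36 CPM in the single mutant V5 replicate 2. All 4 mutant libraries lay above wild type, but the double mutant libraries were far apart, with 1718 and 20 counts. The wild-type libraries held 1 and 3 counts, so the gene passed the filter through the mutants and no fold is given (edgeR adjusted p 0.779 for the double and 0.585 for the single mutant). DESeq2 called this gene in both mutants, with adjusted p of 0.00738 and 0.00205. It was the only gene of the group among 58 DESeq2 calls in the double mutant, which is 0.157% of all tested.

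In the single mutant against wild type, edgeR again called none of the 132 genes and none of all genes tested (0%, smallest adjusted p 0.585, with 2035 genes at an unadjusted p under 0.05). At an unadjusted p under 0.05, 13 genes of the group (9.85%) were higher and 2 (1.52%) lower, beside 2.9% and 2.59% of all genes tested. The CPM values did not overlap in 43 genes with the single mutant higher (32.6%) and in 7 with it lower (5.3%), beside 19.3% and 25.8% of all tested. The median log2 fold change was 0.38 in the group and 0 over all genes tested, and over the same 132 genes leaving out the single mutant replicate 2 gave 0.16, and leaving out its replicate 1 gave 0.6. Without the filter it was 0.34 over 261 genes, and without the 2 close libraries 0.16 over 143 genes. The comparison uses the same wild-type libraries as the one before, so the 2 medians are not separate observations.

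Glyma.02G013200 was at 0.0648 and 0 CPM for wild type, 0.787 and 0.26 CPM for the double and 0.404 and 0.696 CPM for the single mutant. All 4 mutant libraries lay above wild type at a low level (edgeR adjusted p 0.585 for the single mutant). Wild type held 2 and 0 counts and the single mutant 14 and 23, so the gene passed the filter through the mutants and no fold is given. Glyma.10G002200 was at 0.875 and 2.74 CPM for wild type, 0.484 and 0.148 CPM for the double and 0.52 and 0.333 CPM for the single mutant, and the single mutant's log2 fold change was -2.03 (SE 0.8, edgeR adjusted p 0.585). Both mutants lay below wild type, and the fold change was -0.997 without the wild-type replicate 2, which held 88 counts against 27 in replicate 1. DESeq2 called 2 genes of the group among its 73 calls (0.197% of all tested), Glyma.08G009900 and Glyma.17G139400. The second, named because DESeq2 called it, was at 0.0972 and 0.623 CPM for wild type, 8.41 and 0.593 CPM for the double and 5.05 and 12.6 CPM for the single mutant. The single mutant lay above wild type (edgeR adjusted p 0.585, DESeq2 adjusted p 0.0467), and the double mutant overlapped wild type. Wild type held 3 and 20 counts and the single mutant 175 and 416. The gene thus passed the filter through the mutants, and no fold is given.

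Between the double and the single mutant, edgeR called none of the 132 genes and none of all genes tested (0%, smallest adjusted p 1, with 99 genes at an unadjusted p under 0.05), and DESeq2 called none either (0%). At an unadjusted p under 0.05, 0 genes of the group were higher and 3 (2.27%) lower in the double mutant, beside 0.0513% and 0.216% of all tested. The CPM values did not overlap in 5 genes with the double mutant higher (3.79%) and in 27 with it lower (20.5%), beside 4.19% and 10.8% of all tested. The median log2 fold change was -0.15 in the group and 0 over all genes tested. Over the same 132 genes it was -0.68 and 0.14 without replicate 1 and replicate 2 of the double mutant, and -0.34 and 0.001 without replicate 1 and replicate 2 of the single mutant. Without the filter it was -0.22 over 261 genes, and without the 2 close libraries -0.54 over 143 genes. Its direction thus varied with the libraries kept.

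Glyma.06G295400 was at 1.13 and 1.62 CPM for wild type, 0.333 and 0.668 CPM for the double and 1.56 and 0.968 CPM for the single mutant. The log2 fold change between the mutants was -1.29 (SE 0.5), with an edgeR adjusted p of 1. In the other direction Glyma.07G117700 was at 0.151 and 0.334 CPM for the double and 0.144 and 0.0908 CPM for the single mutant, beside 0.324 and 0.28 CPM for wild type. Its value in the single mutant replicate 2 was within the 0.0866 to 0.111 CPM that 3 counts make at R5. No fold is given against so few counts (edgeR adjusted p of 1). The double mutant lay below the single mutant in the first gene. In the second it lay above, but replicate 1 of the 2 mutants was almost level, and the gene was low in every genotype. Glyma.12G179700 also lay higher in the double than in the single mutant, with a log2 fold change of 0.48 (SE 0.33) and an edgeR adjusted p of 1.

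**Figure D4:**
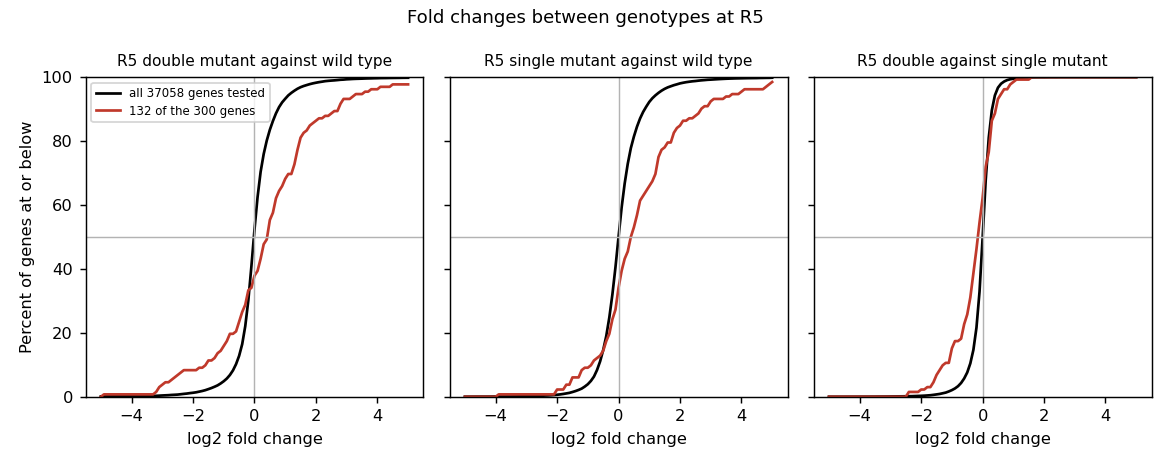
Each panel shows 1 comparison at R5, with the log2 fold change on the horizontal axis and the percent of genes at or below it on the vertical axis, for all 37058 genes tested (black) and the 132 tested genes of the group (red). The red line crosses 50% at 0.42 and 0.38 against wild type and at -0.15 between the mutants, and it is less steep than the black line in each panel.

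Of the 56 genes that passed 1 CPM in some but not all R5 libraries, 1 stood above 1 CPM in all 4 mutant libraries and in neither wild-type library (1.79%, beside 1.71% of the 4508 such genes in the whole series), and 0 showed the opposite (beside 2.4%). In 5 genes only these 2 close libraries (double mutant replicate 1, single mutant replicate 2) passed 1 CPM (8.93%, beside 7.83%), and 18 genes passed it in a single library (32.1%, beside 22.3%). The shares by genotype and by the 2 close libraries were thus near those of all such genes.

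By the chromosome number in the ID, the 300 genes came from all 20 chromosomes. Chromosome 2 had 27 of them (9%, beside 5.82% of all genes above 1 CPM in the single mutant V5 replicate 2), and chromosome 9 had 8 (2.67%, beside 4.9%). Of the chromosomes of the edited genes, chromosome 20 had 14 genes (4.67%, beside 4.43%) and chromosome 10 also had 14 (4.67%, beside 5.44%). Chromosome 20 held none of the 43 genes on at R5, as did chromosomes 3 and 16, and 6 of the 96 silent ones. A further 6 genes had IDs with no chromosome number (2%, beside 0.532%). In the order of the IDs in the files, 5 pairs of the genes were direct neighbours, and 23 genes (7.67%) lay within 3 steps of another. Most of the group was thus not gathered in runs. Whether neighbours were more frequent than in other sets of genes was not tested.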

How the data were processed

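The authors deposited 1 table of whole-number read counts per gene ID for each of 12 libraries. Bowtie, HISAT2 and HTSeq were used, per the submitters' processing notes, with no role or version given. Not given in the sources used here are the build of the genome, its annotation, any strand option and what was done with multi-mapping reads. Totals were 26966329 to 34626177 counts at R5 and 20410270 to 21066989 at V5. Intervals and floors (3 counts) cover counting error only, since reads carry no molecular identifiers.

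CPM was computed from library totals, and ties at the limit of 300 genes were broken by ID order. Non-overlap and highest or lowest libraries were counted on this CPM, without the TMM factors used in the fits. At R5 those factors were 0.925 and 0.928 in the 2 close libraries and 1.01 to 1.08 in the others. R5 genotypes were compared with edgeR 4.0.16 in R 4.3.3 (TMM, filterByExpr with minimum count 10 and minimum total 15, quasi-likelihood test, 3 residual degrees of freedom), with Benjamini-Hochberg adjustment over all genes tested and a threshold of 0.05. P-values measure the spread between these libraries, which may be technical. DESeq2 1.42.0 and the other alternatives are described in the closing section. The genes and lists were chosen with earlier results of these data known. The 20 lists defined by product words could not be filled (0 filled), so none was tested. Named genes were the 2 with the highest CPM in each R5 class, and per R5 comparison the 2 per direction with the smallest unadjusted p, since none was called. On simulated R5 counts, edgeR recovered 49% of 100 genes changed 4-fold and 95% of 100 changed 16-fold for the double mutant (36548 genes), and 50% and 88% for the single mutant (36526 genes), with 15 and 8 false calls. The changed genes were drawn only from genes with a mean above 1 CPM, and the simulated libraries were independent of each other. Recovery was therefore not measured for lower genes, or with 2 libraries as close as those at R5.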

Additional observations from a re-analysis of the deposited data

How the results depend on the processing

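The number of genes that met the rule was 343, and it depended on the thresholds. It was 208 with TMM effective library sizes, 193 above 2 CPM, 609 above 0.5 CPM, 118 with exactly 0 counts in the other V5 libraries, 563 at 0.2 CPM or less, and 373 to 398 with 1 of the other 5 V5 libraries left out. The 208 genes under TMM scaling were all among the 300. The count of genes on in all 6 R5 libraries was 44 with TMM, 43 to 45 with 1 R5 library left out, 51 without the 2 close R5 libraries and 49 of all 343. The count silent at R5 was 96, 96 to 105, 113 and 112 in the same order.

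EdgeR called 0 genes in each R5 comparison with RLE size factors, without the filter, with all 12 libraries, with any 1 R5 library left out (0 to 0) and without the 2 close libraries. Against wild type, DESeq2 called 58 genes for the double mutant and 73 for the single mutant. The replicate block gave 0 calls in each comparison. The numbers do not pair the libraries, since deviations of same-numbered libraries correlated at 0.208, -0.31 and -0.683. A crossed pairing, chosen after seeing the data, gave 48 calls for the double mutant, 8 for the single mutant and 0 between the mutants, with none in the group. The medians of the group moved with the filter and the libraries kept, and stand beside each comparison. Of 168 values of named genes under alternatives, 165 kept their direction and side of the threshold, 3 passed it with DESeq2 and 0 reversed. The cause of these changes was not tested. Depth limits the lowest genes: 3 counts at R5 are 0.0866 to 0.111 CPM.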

Other observations

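The 43 genes that met the rule but fell outside the limit of 300 resembled the group in their R5 classes. Of these, 6 (14%) stood above 1 CPM in all 6 R5 libraries, 21 (48.8%) lay between and 16 (37.2%) stood at 0.1 CPM or less in all 6. All 6 that were on at R5 had a lower value in the single mutant V5 replicate 2 than in any R5 library, at 1.04 to 1.19 CPM against R5 medians of 2.2 to 32.8 CPM. The limit and the class nearly fix this, since the limit left only values up to 1.19 CPM and the class requires more than 1 CPM at R5.

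Of 12587 genes that no R5 library and none of the other 5 V5 libraries held above 0.1 CPM, 112 (0.89%) passed 1 CPM in the single mutant V5 replicate 2 and 450 stood between 0.1 and 1 CPM there. The TMM factor of that library was 1.36, against 0.778 to 1.05 in the other V5 libraries.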
